A study of Homo sapiens with 2 samples.

Results

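The mRNAs described here are those of human zinc finger genes whose symbol is ZNF followed by a number, as far as they appeared in a list of RNA regions enriched in a catenin immunoprecipitation (IP). Members were chosen by symbol alone, and 40 of the 1658 gene symbols in the list qualified. ZNFX1, whose symbol carries no number after ZNF, is outside the rule. The study holds 2 samples of the breast cancer cell line MDA-MB-231, which is mesenchymal in character and lacks hormone receptors and HER2 amplification. One is RNA recovered with the IP, titled B-catenin, and the other is its input. The labels name no treatment, genotype or time for either, RNA was sheared to about 300 to 500 bp, and each group has 1 library. The peak list belongs to the IP, and values of the input on its own were not analysed here. No difference between genes below therefore has a replicate check, and no test across samples was possible.

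Most ZNF genes encode proteins with arrays of the C2H2 zinc finger, a short fold held by a zinc ion between a pair of cysteines and a pair of histidines, and fingers side by side read successive bases of DNA. The largest class carries a KRAB domain at the start of the protein, which recruits the corepressor TRIM28 (KAP1) and with it histone methylation and heterochromatin proteins, often over transposable elements. In KRAB genes the finger array is usually encoded by one long last coding exon. Because fingers repeat within a gene and resemble each other between paralogs, short reads from one ZNF mRNA can resemble another. Beta-catenin itself is known as an adherens junction protein and as the transcriptional effector of Wnt signalling.

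For each symbol, the listed transcript with the most tags (sequenced fragments counted in peaks) stood for the gene. In this form the 40 genes had 51 peaks with 1434 tags, 1.07% of the 133739 tags over the 2440 peaks of all genes. The fold enrichment is a ratio deposited by the authors for each peak, and the highest among a gene's peaks is given as its fold. Tags per kb relate a gene's tags to its summed peak length. How deeply the library was sequenced is unknown. Intervals are exact Poisson intervals for tags and exact Clopper-Pearson intervals for shares, at 95%, and they cover counting error only. All 40 symbols were found in the RefSeq table of GRCh38.p14, which lists 517 protein-coding symbols of this form. The share with a peak was 7.74% (interval 5.58 to 10.4%), and the share of all 20056 protein-coding symbols with a peak was 8.11%. The ZNF share was thus close to the background of all genes. Of the markers set for the cell line, FN1, EGFR, ZEB1 and MMP14, 4 of 10 in the mesenchymal and basal set, were listed with a peak, and 0 of 10 luminal and 0 of 4 blood genes were. From the first set VIM, CD44, AXL, CAV1, TWIST1 and SPARC were not listed. With a background share of 8.11%, sets this small cannot identify the cells. In this list an absent gene is one without a listed peak, which is not the same as an RNA that is not expressed.

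Within the list, the ZNF mRNAs carried fewer tags than other genes on shorter peaks. Their medians of tags per kb and fold lay nearer to those of other genes but were also lower. The median was 24.5 tags per gene, against 41.5 for the other 1618 genes. The median summed peak length was 840 nt against 1299 nt. The median density was 27.2 tags per kb against 29.9, and the median fold was 7.24 against 7.66. The upper quartiles were 41.3 tags against 87, 30.5 tags per kb against 40.8, and a fold of 8.83 against 11. Above the median of the other genes stood 10 of the 40 ZNF genes by tags, 12 by tags per kb and 15 by fold. ZNF values ran from 11 to 126 tags, from 19.3 to 50.4 tags per kb and from 4.02 to 23.15 in fold.

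**Figure D1:**
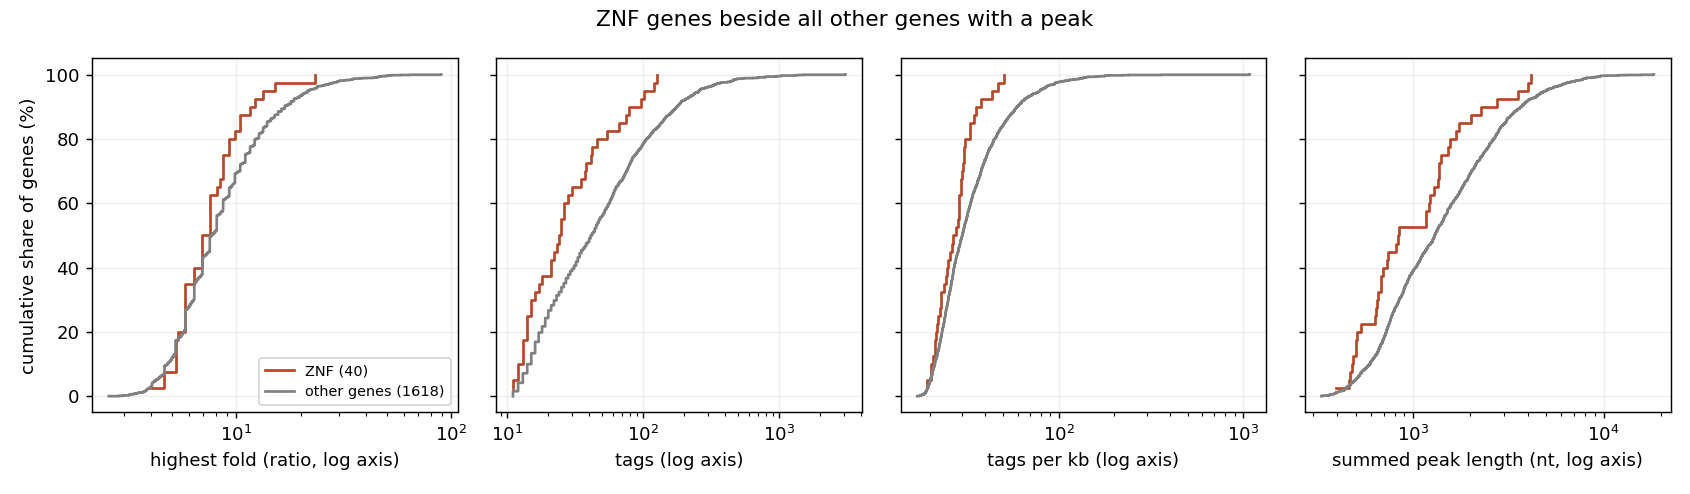
Cumulative share of genes (%, vertical axis) against highest fold, tags per gene, tags per kb of peak and summed peak length in nt (log axes), for the 40 ZNF genes (red) and the 1618 other genes with a peak (grey). The ZNF curve lies left of the grey curve most clearly for tags (medians 24.5 and 41.5) and peak length (840 and 1299 nt); all values are from 1 IP library.

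A fold of at least 10 was reached by 7 of the 40 genes (17.5%, interval 7.34 to 32.8%), against 30.3% of all 1658 genes. A score of at least 100 in a further, unnamed column of the authors was reached by 9 (22.5%, interval 10.8 to 38.5%), against 39.4%. The first interval includes its background and the second ends just below it. The highest fold fell below 10 on another listed transcript of ZNF35 (8.68), ZNF462 (8.68), ZNF609 (9.26) and ZNF644 (6.95). On those of ZNF217 and ZNF460 it stayed above 10. Fewer than 30 tags were found on 25 of the 40 genes (62.5%, interval 45.8 to 77.3%) and on 38.9% of the other genes. More than 1 peak was found on 9 of the 40 (22.5%, interval 10.8 to 38.5%) and on 31.7% of the other genes. Tags, peak length and number of peaks are linked in such a list, and transcript lengths were not used here, so their part in these differences was not tested.

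**Figure D2:**
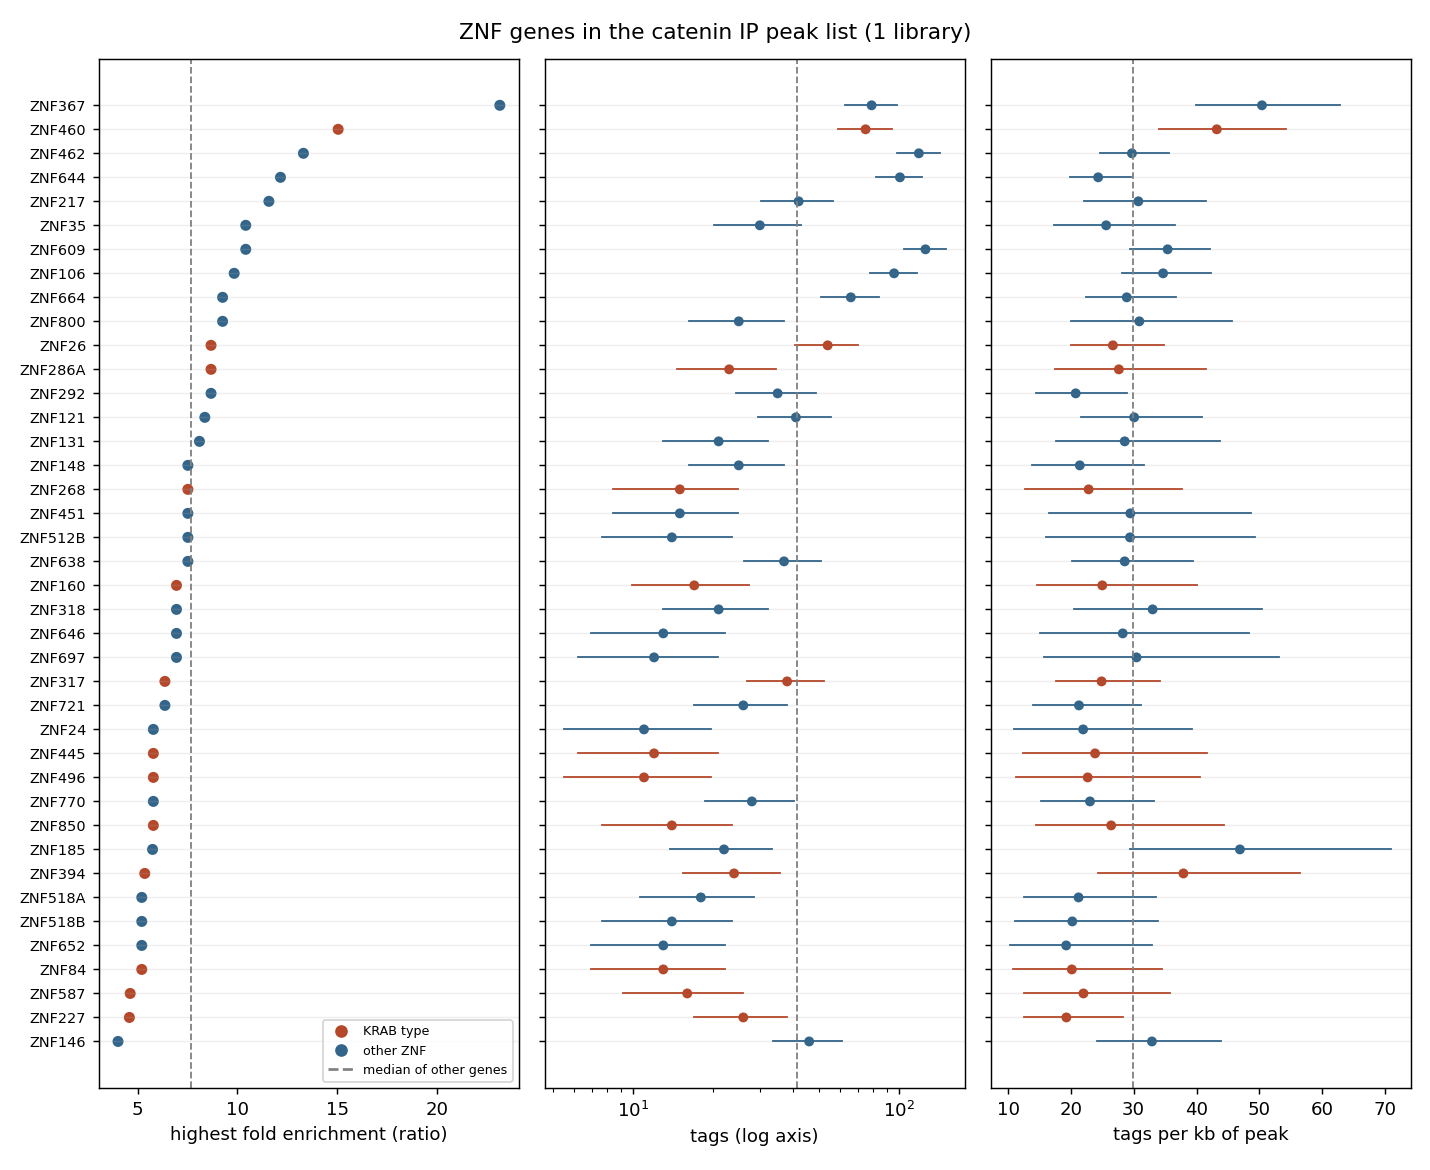
Highest fold (left), tags (middle, log axis) and tags per kb of peak (right) of the 40 ZNF genes, ordered by fold; horizontal lines are exact 95% Poisson intervals, red marks KRAB-type genes and dashed lines are the medians of the other genes with a peak. ZNF367 leads by fold (23.15) and tags per kb (50.4), ZNF609 by tags (126), and most intervals of neighbouring genes overlap.

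ZNF367, a C2H2 transcription factor, had the highest fold of the group, 23.15. Its single peak held 79 tags (interval 62.5 to 98.5) at nt 777 to 2343 of ENST00000375256, with the summit at nt 1773 and the label 3' untranslated plus coding. Its density of 50.4 tags per kb (interval 39.9 to 62.8) was also the highest, and it ranked 70 of 1658 by fold but 249 by density. No other transcript of ZNF367 was listed. ZNF460, a KRAB-type gene, followed with a fold of 15.05 and 75 tags (interval 59 to 94) in 1 peak at nt 174 to 1908 of ENST00000360338. Its density was 43.2 tags per kb, and on its other listed transcript it had 72 tags at the same fold. By tags and by density these leading genes do not differ beyond their counting intervals, and the fold of a peak carries no interval in the file.

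The most tags lay on genes of large proteins outside the KRAB class. ZNF609, which is also known as the source of an abundant circular RNA, had 126 tags (interval 105 to 150) in 2 peaks of 63 tags each. These covered nt 44 to 1871 and nt 1878 to 3608 of ENST00000326648, only 6 nt apart, with folds of 9.26 and 10.42 and densities of 34.5 and 36.4 tags per kb. The listed peaks thus covered nearly all of nt 44 to 3608 at a like density. On the other listed transcript of ZNF609, a single peak at nt 74 to 955 held 35 tags.

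ZNF462, a large C2H2 protein with roles in development, had 119 tags (interval 98.6 to 142) and 4 peaks on ENST00000277225, the most peaks of any ZNF gene. Its first peak, at nt 1876 to 2946, held 56 tags at a fold of 13.31 and a density of 52.3 tags per kb (interval 39.5 to 67.9). The other 3 peaks, at nt 4141 to 4664, nt 5403 to 6767 and nt 6917 to 7960, held 12, 27 and 24 tags at 22.9, 19.8 and 23.0 tags per kb. The interval of the first peak lay above that of the third (13 to 28.8) and of the last (14.7 to 34.2), and overlapped that of the second (11.8 to 40). Its other 2 listed transcripts carried the second and last peaks alone, with 36 tags. The densest stretch of ZNF462 was therefore listed on 1 of its 3 transcripts.

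ZNF644, a partner of the histone methyltransferases G9a and GLP, had 101 tags (interval 82.3 to 123) on ENST00000337393. A peak at nt 312 to 1974 held 40 tags at a fold of 12.16, and a peak at nt 2259 to 4743 held 61 tags at a fold of 8.68. The peak with fewer tags had the higher fold, while both densities were close, 24.1 and 24.5 tags per kb. ZNF106, a zinc finger protein that binds RNA, had 96 tags (interval 77.8 to 117) on ENST00000263805. Of these, 78 lay in a peak at nt 378 to 2484 with a fold of 9.84, and its summit at nt 585 stood near the 5' edge of that peak. The remaining 18 tags lay at nt 4219 to 4879 with a fold of 7.52. Other listed transcripts of ZNF106 held as few as 18 tags.

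Further genes with 2 peaks had fewer tags. ZNF664 had 66 tags on ENST00000392404, of which 46 lay at nt 559 to 2077 with a fold of 6.95 and 20 at nt 2965 to 3729 with a fold of 9.26. ZNF638, which encodes a nuclear protein that binds RNA and acts in splicing, had 37 tags, with 23 at nt 1901 to 2740 and 14 at nt 3899 to 4353 of ENST00000264447. ZNF292 had 35 tags on ENST00000339907 in peaks 3859 nt apart, the widest gap between neighbouring peaks in the group. Its folds were 8.68 at nt 882 to 2010 and 5.21 at nt 5870 to 6425. ZNF770 had 28 tags in peaks at nt 602 to 1105 and nt 1208 to 1918 of ENST00000356321, with folds of 5.79 and 4.63.

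Among genes with a single peak, ZNF217 is of interest in breast cells because it is known as an oncogene amplified in breast cancer and as a component of corepressor complexes. It had 42 tags (interval 30.3 to 56.8) at nt 1953 to 3318 of ENST00000302342, with a fold of 11.58 and the same values on its other listed transcript. ZNF35 stood at a fold of 10.42, and its 30 tags lay at nt 78 to 1248 of ENST00000396056. ZNF146, which consists of little more than its fingers, had the lowest fold of the group, 4.02, with 46 tags (interval 33.7 to 61.4) at nt 39 to 1436 of ENST00000443387. ZNF121 had a fold of 8.37 with 41 tags, and ZNF800 a fold of 9.26 with 25. ZNF148, a regulator that binds GC-rich promoters, stood at 7.52, and its 25 tags lay at nt 38 to 1204 of ENST00000360647, and ZNF131, which pairs its fingers with a BTB domain, had 8.10 with 21.

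The KRAB-type genes had lower medians than the rest of the group for tags, density and fold. The 13 members known to carry a KRAB domain, assigned from general knowledge after the members had been seen, had a median of 17 tags, 24.9 tags per kb and a fold of 5.79. The other 27 had medians of 26 tags, 28.9 tags per kb and a fold of 7.52. The quartile ranges of the KRAB-type and other ZNF genes overlapped for all 3 measures. They were 14 to 26 against 16.5 to 44 tags and 22.7 to 26.7 against 22.5 to 30.8 tags per kb. For the fold they were 5.36 to 7.52 against 6.08 to 9.55. Of the 13, 12 had a single peak and 1, ZNF460, had a fold of at least 10. After ZNF460 the most tags lay on ZNF26, with 54 (interval 40.6 to 70.5) at nt 492 to 2514 of ENST00000328654 and a fold of 8.68. ZNF317 had 38 tags in 2 peaks at nt 418 to 985 and nt 2542 to 3500 of ENST00000360385, both at a fold of 6.37. ZNF227 had 26 tags at a fold of 4.59, ZNF394 24 at 5.36 and ZNF286A 23 at 8.68. ZNF160, ZNF587, ZNF268, ZNF850, ZNF84, ZNF445 and ZNF496 had 11 to 17 tags and folds from 4.63 to 7.52. ZNF445, known for keeping imprinted regions methylated, stood at 5.79 with 12 tags (interval 6.2 to 21). With so few tags the intervals of these genes overlap, and no order among them can be read.

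The remaining genes were weak. ZNF24 and ZNF496 had the fewest tags, 11 each, which is the lowest count of any peak in the list, and both stood at a fold of 5.79. ZNF652, a transcriptional repressor, had 13 tags and the lowest density of the group, 19.3 tags per kb (interval 10.3 to 32.9), and its score of 30.1 was just above the minimum of 30 in the file. ZNF318 and ZNF646 stood at 6.95 with 21 and 13 tags. ZNF697, with 12 tags on 394 nt, had the shortest peak of the group. ZNF512B and ZNF451, the latter a SUMO ligase, stood at 7.52 with 14 and 15 tags. The paralogs ZNF518A and ZNF518B both stood at 5.21, with 18 and 14 tags, and ZNF721 at 6.37 with 26. Of the 40 genes, 15 had fewer than 20 tags. On the transcript that stands for the gene, 16 (40%) had no peak with a score of 50 or more, against 30.1% of other genes.

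The position of a peak relative to the finger array could not be placed, since coding starts and protein sequences were not used here. Positions are along the transcripts, and what follows rests on the region labels of the authors. Coding sequence alone was the label of 20 of the 51 peaks (39.2%, interval 25.8 to 53.9%), close to the 39.7% of peaks on other genes. For minimum scores, the transcript of each gene was chosen anew among the peaks that passed, so these peaks are not all among the 51. Among peaks with a score of at least 50 the coding-only share was 25% (8 of 32, interval 11.5 to 43.4%), against 38.1% on other genes. At a score of at least 100 it was 30% (3 of 10, interval 6.67 to 65.2%), against 35.7%. Both intervals include the share on other genes. The 3' untranslated region alone was given to 18 peaks (35.3%, interval 22.4 to 49.9%), against 28%. The label 3' untranslated plus coding was given to 8 peaks, 5' untranslated plus coding to 4 and both untranslated regions to 1, while 0 (interval up to 6.98%) were labelled 5' untranslated alone. Over all 51 peaks, the interval of each label includes the share found on other genes. By tags, the coding-only peaks held 33.8% and the 3' untranslated peaks 27.5% of the ZNF tags.

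**Figure D3:**
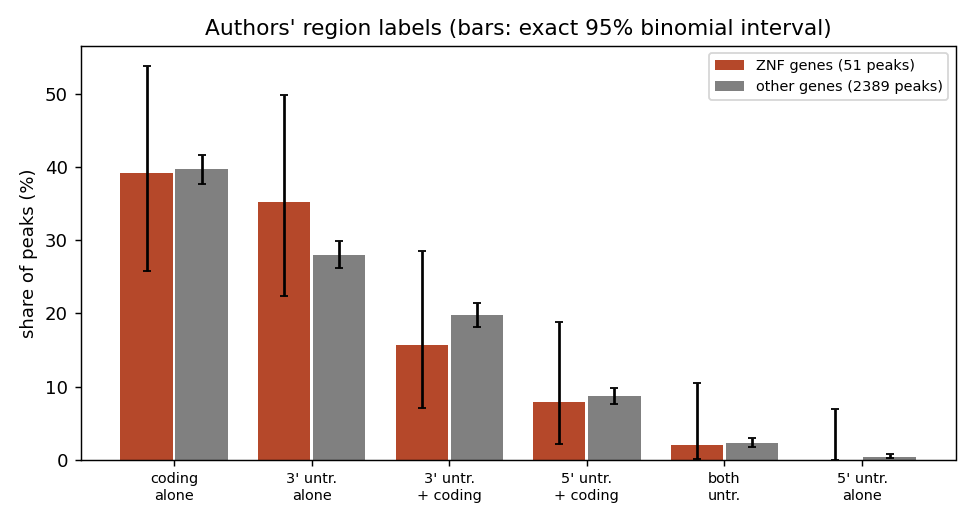
Share of peaks (%, vertical axis) by the authors' region label for the 51 peaks of ZNF genes (red) and the 2389 peaks of other genes (grey); vertical lines are exact 95% binomial intervals. Coding alone was given to 39.2% of ZNF peaks and 39.7% of other peaks, and every ZNF interval includes the value of the other genes.

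Among the KRAB-type genes, 7 of 14 peaks were labelled coding alone (50%, interval 23 to 77%). That interval includes the 39.7% of peaks on other genes and the 35.1% on the other ZNF genes. The 7 peaks were those of ZNF84, ZNF227, ZNF268, ZNF394, ZNF496 and ZNF587 and the first of the ZNF317 peaks. In 10 of the 13 KRAB-type genes the peaks ended before nt 2600, but so did those of other ZNF genes, such as ZNF367 (nt 2343) and ZNF35 (nt 1248). The share of other genes with peaks ending before nt 2600 was not worked out, so this cannot be read as a trait of the class. Outside the KRAB class, coding-only peaks lay on ZNF131, ZNF292, ZNF318, ZNF462, ZNF518A, ZNF609, ZNF638, ZNF644 and ZNF646. In ZNF292, ZNF462 and ZNF638, whose proteins are large, such peaks lay at several places far apart along the coding sequence. The first peak started before nt 1000 in 28 of the 40 genes (70%) and in 69.6% of other genes, and 5 of the 51 peaks (9.80%) and 9.67% of other peaks started before nt 100. Both shares were close to those of other genes.

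**Figure D4:**
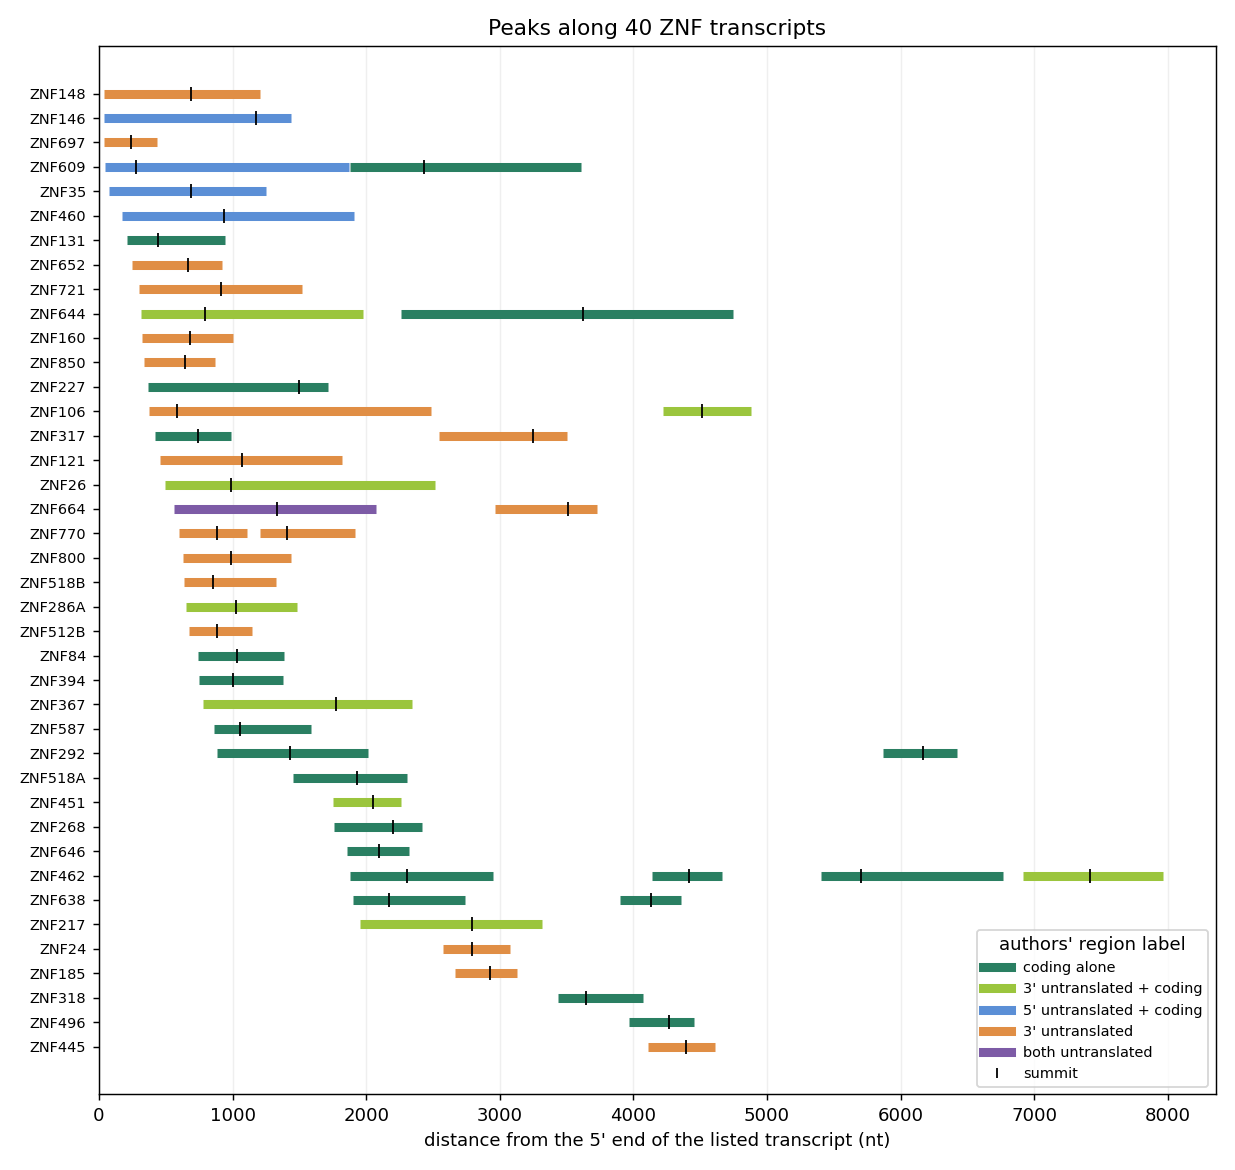
Peaks of the 40 ZNF genes along the transcript that stands for each gene (horizontal axis, nt from its 5' end), coloured by the authors' region label, with a black tick at each summit; genes are ordered by the start of their first peak. ZNF462 has 4 peaks, the 2 peaks of ZNF609 lie 6 nt apart, and 12 of the 18 peaks labelled 3' untranslated start before nt 1000.

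Among ZNF peaks listed unchanged on several transcripts, most labels were the same on each, but some were not. A peak with the same length, tags, fold and summit offset was listed on at least 2 transcripts of the same gene in 28 cases, and in 5 of these (17.9%, interval 6.06 to 36.9%) the label differed between transcripts. Among other genes it differed in 24.3% of 1209 cases, a share inside that interval. The 809-nt peak of ZNF800, with 25 tags, was labelled 3' untranslated on 2 transcripts, 3' untranslated plus coding on another and 5' untranslated plus coding on the remaining one. The 680-nt peak of ZNF160 and the 661-nt peak of ZNF106 each carried 3 labels, and those of ZNF268 and ZNF721 were called coding on some transcripts and 3' untranslated on others. Peaks whose length differed between transcripts were outside this count. On ZNF394 a 633-nt peak was labelled coding alone and a 591-nt peak on the other transcript 3' untranslated. Labels also differed on such peaks of ZNF26, ZNF35, ZNF106, ZNF148 and ZNF286A, while those of ZNF131 and ZNF460, for example, kept theirs. In some genes the position went against the label. ZNF462 and ZNF644 were the ZNF genes with both a coding-only peak and one labelled 3' untranslated plus coding, and in ZNF644 the latter lay upstream of the former. The same order was found in 91 of 135 such other genes. The peaks of ZNF697 and ZNF148 were labelled 3' untranslated although they began at nt 41 and nt 38. Of the 18 peaks labelled 3' untranslated, 12 began before nt 1000 (66.7%, interval 41 to 86.7%), against 44.2% of 669 on other genes, a share inside that interval.

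No 2 ZNF genes had peaks of the same length and tag count. A peak was first called shared where another symbol had one of the same length and tag count. By this rule 8 of the 51 ZNF peaks (15.7%) and 11.5% of other peaks had a partner. Of these 8 ZNF peaks, 0 had a partner on another ZNF gene. The partners were mostly unrelated genes, as with the 460-nt peaks of ZNF646 and SON, both with 13 tags, and all 8 ZNF peaks in question had 12 to 23 tags. The others were on ZNF84, ZNF268, ZNF292, ZNF317, ZNF462, ZNF512B and ZNF518B. The partners of ZNF84 were DIDO1 and ZFP69B, and those of ZNF512B were ZBED6 and ZC3H11A. Of these, ZFP69B, ZBED6 and ZC3H11A are zinc finger genes outside the ZNF symbols. When the summit offset also had to be the same, 0 of 51 ZNF peaks (interval up to 6.98%) and 2.09% of 2389 other peaks had a partner. With tolerances of 10 nt and 2 tags, 45 of 51 ZNF peaks and 77% of other peaks had a partner, so the looser rule took in most of the list. Under it, 11 of the 51 ZNF peaks had a partner on another ZNF gene. Near-identical copies whose peaks differed by 1 tag would escape the strict rule, and the handling of reads that match several ZNF genes was not stated in these sources.

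Some members are neighbours in the genome. By gene order in the RefSeq table, ZNF26 and ZNF84 are adjacent, and ZNF268 follows after 3 further ZNF genes (ZNF140, ZNF891 and ZNF10), of which none had a peak. The peaks of these neighbours differed in size, with 54 tags on 2023 nt for ZNF26, 13 on 645 nt for ZNF84 and 15 on 657 nt for ZNF268. ZNF445 and ZNF35 are separated by 5 coding genes, and ZNF146 and ZNF850 by 8.

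The folds of the ZNF genes took mostly stepwise values. In 46 of the 51 peaks (90.2%, interval 78.6 to 96.7%) the fold fell on a multiple of 0.57882, give or take 0.0051, against 69.7% of other peaks. The peaks on the multiples stood at 8 to 40 steps, and 23 of them at 8 to 12 steps. The folds 7.52 (13 steps) and 5.79 (10 steps) were each shared by 5 ZNF genes. ZNF367 stood at 40 steps, ZNF460 at 26 and the first peak of ZNF462 at 23. The 5 peaks off the multiples lay on ZNF121, ZNF146, ZNF185, ZNF227 and ZNF394. In 3 of these 5, fold and density stood far apart. ZNF185, a LIM-domain protein of the actin cytoskeleton, ranked 2 of 40 by density (46.9 tags per kb, interval 29.4 to 71) but 32 by fold (5.75). ZNF394 ranked 4 by density (37.9 tags per kb) and 33 by fold, and ZNF146 ranked 8 (32.9 tags per kb) and 40. The median density of the 5 genes was 32.9 tags per kb at a median fold of 5.36, against 26.4 tags per kb at a fold of 7.52 for the 35 others. Across the 40 genes, which share 1 library, Spearman's rho between fold and density was 0.49, and over the 35 genes on the multiples it was 0.71. Both quantities are counted from the same tags.

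In the annotation that the authors joined to the transcripts, 35 of the 40 genes carried the term DNA binding, against 20.2% of other genes, and ZNF106, ZNF185, ZNF318, ZNF451 and ZNF609 did not. RNA binding was given to 2, ZNF106 and ZNF638, against 22.4% of other genes. The nucleus was given to 39, with ZNF185 the exception, against 59% of other genes, and 0 had a KEGG pathway, against 37.1%.

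Other zinc finger genes are given for comparison, from a set assembled with earlier results of these data known, so that its share with a peak supports no difference from the ZNF series. Of 230 protein-coding symbols in the set, 42 (18.3%, interval 13.5 to 23.9%) had a peak, beside 8.11% of all protein-coding symbols. Without 15 single genes chosen by name, 36 of 215 (16.7%, interval 12 to 22.4%) did. The set was mostly matched by symbol pattern. It takes in SP140L, which is not an Sp zinc finger factor, and leaves out other zinc finger genes such as ZBED6. The median fold of the 42 genes was 7.52, with medians of 27.3 tags per kb and 36 tags. In the BTB zinc finger family 11 of 42 genes had a peak, and ZBTB7A was highest with a fold of 23.73 and 66 tags. The ZC3H genes, whose CCCH fingers bind RNA, had one in 8 of 21. Of these, all 335 tags of ZC3H11A lay in 5 peaks that were also listed, with the same length, tags and summit offset, on ZBED6, so they cannot be assigned to either gene. ZC3HAV1 stood at 21.32 with 239 tags. ZFP91 stood at 34.06 with 160 tags and the neuronal gene repressor REST at 27.78 with 162. Both ZEB1 and ZEB2, repressors of epithelial genes, had a peak, at folds of 6.37 and 8.10. The KLF family had a peak in 0 of 18 cases (interval up to 18.5%) and the EGR family in 0 of 4 (interval up to 60.2%). Both intervals include the 8.11% of all protein-coding symbols, so neither absence can be read as a trait of the family. By current symbols, the ZCCHC, ZNRF, ZFYVE, ZMIZ, GLI and IKZF families also had none.

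Of 38 genes of the corepressor machinery with which KRAB proteins act, 14 had a peak (36.8%, interval 21.8 to 54%), beside 8.11% of all protein-coding symbols, with a median fold of 9.65 and a median of 77.5 tags. CHD4, the remodeller of the NuRD complex, stood at 28.36 with 343 tags, the DNA methyltransferase gene DNMT1 at 20.43 with 305 and the heterochromatin protein gene CBX5 at 15.69 with 294. SETDB1, the histone methyltransferase recruited through TRIM28, had 17 tags at a fold of 5.21, and TRIM28 itself had no listed peak. This list too was assembled with earlier results known, so its share supports nothing further, and the part of mRNA length and abundance in these shares was not tested.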

How the data were processed

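The file used holds peaks of the IP library along Ensembl transcripts. Tag counts are whole numbers of tags per peak, as the authors deposited them. The fold is a ratio for each peak, per the file headers, and serves only to describe peaks within the list. The authors' unnamed column is called the score here, and its minimum is 30. Start, end, length and summit are in nt along the transcript. The submitters' processing notes name hg18. Aligner, peak caller and background library: not given in the sources used here.

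Members matched ZNF followed by digits. For each symbol, the listed transcript with the largest sum of tags was used (ties: lowest identifier). This symbol rule used no values of the peaks, but the rule and the lists were chosen with earlier results of these data known. Full values were planned for the 10 members highest by fold, tags or tags per kb, those with 2 or more peaks or a shared peak, and the lowest. The step of the folds was the value that the most folds of the 2440 peaks fell on. Procedures were tested on simulated data. RefSeq (GRCh38.p14) served for names and gene order only; 1592 of 1658 symbols matched directly and 46 under an older symbol. Python 3.11.15, pandas 2.3.3 and scipy 1.17.1 were used.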

Additional observations from a re-analysis of the deposited data

How the results depend on the processing

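No paired analysis was possible because only 1 library stands in each group, and for the same reason no replicate could be left out. Of 30 alternative values, 19 stayed within 1.5 times (counts) or within the counting or order-statistic interval (shares and medians) and 11 did not. A score of at least 100 left 9 ZNF genes, with medians of 10.42 for the fold, 61 tags and 35.4 tags per kb. A score of at least 50, applied to the peaks of all listed transcripts, left 25 genes, and 25% of their peaks were labelled coding alone (38.1% on other genes). Each transcript on its own gave 105 ZNF transcripts by construction. Of peaks sharing length and tags with another gene, 8 in the main setting, 45 were counted with tolerances of 10 nt and 2 tags, 23 over all listed transcripts, 0 with the same start, end and tags, and 0 with the same summit offset. The cause was not tested. The counts of ZNF transcripts and of shared peaks over all listed transcripts, the summit offset, labels across transcripts, multiples of the fold and the 4-fold minimum for the median fold were chosen after seeing the data. The alternatives that need protein sequences (members defined by finger motifs, and overlap with the finger array) were not run. Many members rest on few tags: the median ZNF gene had 24.5 and the weakest 11.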
